A study of Homo sapiens with 12 samples.

Results

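This section describes 10 genes of the neuronal cytoskeleton and its neighbours in human embryonic stem cells (hESC) that express or have lost MEG3, a maternally expressed long noncoding RNA. The genes are RTN1, MAP2, TUBB3, STMN2, STMN4, NEFM, NEFL, TAGLN3, DCX and CNTN2. They were chosen by name, and every array probe annotated to one of them was taken, which gave 18 of 47230 probes and 10 of the 20020 genes with a probe of their own. RNA was measured on Illumina HumanHT-12 bead arrays, on which a bead probe reads one stretch of a transcript. Levels are log2 normalized signals, which rank samples for a probe but not probes against each other, and an array detects a probe where its detection p-value is under 0.01.

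The 12 arrays fell into 4 groups. H9 hESC, labelled MEG3-OFF, were on 2 arrays, and NTU1 hESC that had lost MEG3 (MEG3-OFF) were on 5 arrays, numbered 5 to 9. An embryoid body (EB), a clump of differentiating cells of unstated age labelled MEG3-ON, was on 1 array, and NTU1 hESC with MEG3 (MEG3-ON) were on 4 arrays, numbered 1 to 4. The authors grew the undifferentiated cells on mouse embryonic feeders without serum and told the NTU1 sublines apart by quantitative PCR for MEG3. No drug or engineered allele is named for any group. H9 and NTU1 are different hESC lines, all NTU1 sublines come from 1 parental line, and the labels do not give their passages. A single chip carried every array, those of each group side by side, so a group's place on it and the group itself cannot be told apart. Nothing states how far the sublines were kept apart, so the p-values measure only the spread between these samples, which may be technical.

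MEG3 followed the labels. Its level was 5.10 and 5.15 in H9, 4.97 to 6.30 in MEG3-OFF cells and 13.76 in the EB, against 13.15 to 14.12 in MEG3-ON cells. MEG3 was nonetheless detected on 1 of the 5 MEG3-OFF arrays (MEG3-OFF 8, at 6.30), and on neither H9 array. Between 16864 and 18796 probes were detected per array. The pluripotency list (13 genes with a probe) had a mean level of 11.81 to 11.93 in H9, 11.88 to 12.16 in MEG3-OFF cells and 9.21 in the EB, against 11.77 to 12.03 in MEG3-ON cells, and all 13 genes were detected on every undifferentiated array.

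Neurons are held in shape by microtubules and neurofilaments. TUBB3 is the beta-tubulin used as a neuronal marker, MAP2 binds and spaces microtubules in dendrites, DCX steadies microtubules in migrating young neurons, and the stathmins STMN2 and STMN4 bind tubulin dimers and loosen microtubule ends. NEFL and NEFM are the light and medium neurofilament subunits, TAGLN3 is the neuronal transgelin, an actin-binding protein, CNTN2 is an adhesion protein of growing axons, and RTN1 is a reticulon that shapes the endoplasmic reticulum of neuronal and neuroendocrine cells. Undifferentiated hESC are not neurons.

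Probes of a gene are numbered in the order of their IDs on the array. Of the 18 probes, 5 were detected on all 12 arrays (the single probes of TUBB3, NEFM and NEFL and TAGLN3 probe 1 and DCX probe 2), 3 on the EB array only (the single probes of STMN4 and CNTN2 and TAGLN3 probe 2), and 2 on no array (DCX probe 1 and MAP2 probe 2). The remaining probes, all of RTN1, MAP2 and STMN2, were detected on part of the arrays. In bulk RNA such as this, fewer cells of a type and less RNA per cell cannot be told apart.

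**Figure D1:**
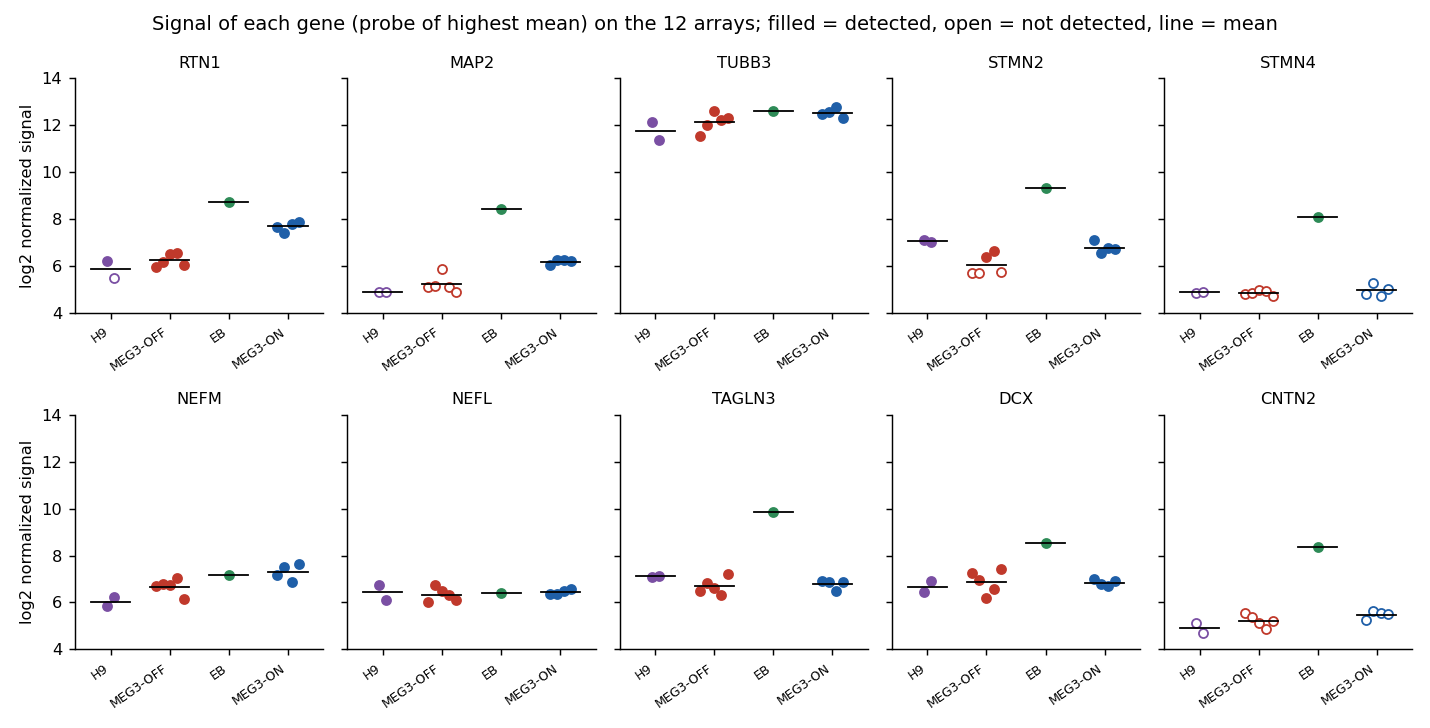
Log2 normalized signal (y axis) of each of the 10 genes, read by its probe of highest mean, in H9, MEG3-OFF, EB and MEG3-ON arrays (x axis). Each point is an array, filled where the probe was detected, and the line is the mean. RTN1 and MAP2 lie lower in every H9 and MEG3-OFF array than in any MEG3-ON array, and STMN4 and CNTN2 are detected in the EB only.

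RTN1 and MAP2, both with a called difference between MEG3-OFF and MEG3-ON cells below, are shown here by their promoters, to place the genes and their alternative starts. The lines give the 250 bases before each annotated RefSeq start, 5′ to 3′ on the strand of the gene, from GRCh38.p14, with CG pairs in capitals.
RTN1 start 1, chr14:59870777-59871026 (- strand): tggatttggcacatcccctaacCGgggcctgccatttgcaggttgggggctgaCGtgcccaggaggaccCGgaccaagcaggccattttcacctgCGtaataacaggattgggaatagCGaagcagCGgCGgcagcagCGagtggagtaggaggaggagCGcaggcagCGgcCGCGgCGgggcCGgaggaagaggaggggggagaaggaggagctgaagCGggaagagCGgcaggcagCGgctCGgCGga
RTN1 start 2, chr14:59630624-59630873 (- strand): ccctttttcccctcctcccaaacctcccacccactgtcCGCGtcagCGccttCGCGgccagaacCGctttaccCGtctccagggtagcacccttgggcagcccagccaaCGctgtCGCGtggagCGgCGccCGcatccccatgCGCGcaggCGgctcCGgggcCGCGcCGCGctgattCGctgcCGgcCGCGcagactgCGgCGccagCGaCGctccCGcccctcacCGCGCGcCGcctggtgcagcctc
RTN1 start 3, chr14:59610140-59610389 (- strand): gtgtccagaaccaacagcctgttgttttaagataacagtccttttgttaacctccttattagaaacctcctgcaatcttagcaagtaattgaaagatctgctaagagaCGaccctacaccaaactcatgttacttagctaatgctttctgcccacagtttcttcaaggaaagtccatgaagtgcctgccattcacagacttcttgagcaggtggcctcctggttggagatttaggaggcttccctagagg
MAP2 start 1, chr2:209579082-209579331 (+ strand): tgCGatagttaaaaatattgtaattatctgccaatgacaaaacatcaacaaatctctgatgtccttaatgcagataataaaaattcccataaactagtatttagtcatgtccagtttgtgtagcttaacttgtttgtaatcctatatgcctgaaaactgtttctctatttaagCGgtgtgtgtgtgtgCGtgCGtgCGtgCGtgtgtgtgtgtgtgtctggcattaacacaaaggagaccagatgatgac
MAP2 start 2, chr2:209579357-209579606 (+ strand): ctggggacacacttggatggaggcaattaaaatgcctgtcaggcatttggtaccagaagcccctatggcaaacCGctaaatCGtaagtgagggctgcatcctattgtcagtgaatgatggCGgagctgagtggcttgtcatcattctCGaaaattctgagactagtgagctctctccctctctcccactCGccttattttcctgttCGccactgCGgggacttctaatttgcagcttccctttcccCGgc
MAP2 start 3, chr2:209661246-209661495 (+ strand): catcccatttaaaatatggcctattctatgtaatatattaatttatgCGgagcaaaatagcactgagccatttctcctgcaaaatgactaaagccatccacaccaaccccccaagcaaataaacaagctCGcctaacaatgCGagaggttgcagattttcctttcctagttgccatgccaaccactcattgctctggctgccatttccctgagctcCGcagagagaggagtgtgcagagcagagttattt
The 3 RTN1 starts differ in make-up. The starts have 19, 34 and 1 CG pairs in these 250 bases, where the median over 35116 RefSeq start windows is 11. The 3 MAP2 starts have 6, 8 and 4, all under that median. Both strands were searched for a TATA box (TATAAA), a GC box (GGGCGG) and an E-box (CAGCTG), found in 10.7%, 42.6% and 14% of all windows. The second RTN1 start holds 1 GC box, and none of the 3 motifs is in the other RTN1 windows or in any MAP2 window. Of 4 further members searched, TUBB3 holds 3 GC boxes before its second start, CNTN2 has 1 before its first, TAGLN3 has 1 E-box and DCX 1 TATA box. These are matches of letters only.

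MEG3-OFF cells were set against MEG3-ON cells to ask which genes differ in sublines that have lost MEG3. RTN1, MAP2 and STMN2 were lower in MEG3-OFF cells by at least 1 probe each, and no member was called higher. Over all probes, limma called 1.51% higher and 1.36% lower of 17746 tested (adjusted p under 0.05), 510 probes, a count that lay between 160 (without MEG3-ON 4) and 1701 (without MEG3-OFF 5) when 1 array was left out. Of the 18 member probes, 11 passed the filter (a minimum of 4 NTU1 arrays with detection, of 9), 4 of these were called lower and 0 higher (6 lower and 0 higher at an unadjusted limma p under 0.05, and 2 lower with the methods' t-test after adjustment). Of the 4 calls, 3 (MAP2 probes 1 and 4 and STMN2 probe 1) passed the filter only through the MEG3-ON arrays. Without the filter, limma called the same 4 lower and 0 higher of all 18 member probes, where 0.309% of 47230 probes were called lower, and the median log2 difference was -0.20 over the 18, against 0.01 over all probes. The 7 tested probes without a call were 1 each of RTN1, STMN2, TAGLN3 and DCX and the single probes of TUBB3, NEFM and NEFL.

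RTN1 was the member with a called difference that was detected on every array of both groups. RTN1 probe 1 had levels of 5.93, 6.18, 6.52, 6.54 and 6.04 in MEG3-OFF cells, against 7.67, 7.39, 7.80 and 7.86 in MEG3-ON cells. Every MEG3-OFF array lay below every MEG3-ON array, as was so for 3.14% of all tested probes, and all 9 arrays detected it. The means were 6.24 ± 0.28 (SD, n = 5) in MEG3-OFF cells and 7.68 ± 0.21 (SD, n = 4) in MEG3-ON cells, a log2 difference of -1.44 ± 0.16 (SE), or 2.71-fold lower (limma adjusted p = 0.000218).

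The 3 RTN1 probes did not give 1 picture. Probe 2 is annotated to the same transcript as probe 1, yet its levels were 5.48 to 6.16 in MEG3-OFF cells and 5.59 to 6.04 in MEG3-ON cells, near the detection limit in both (2 of 5 and 2 of 4 arrays detected). Its log2 difference was 0.04 ± 0.15 (SE, adjusted p = 0.912). Probe 3, annotated to another RTN1 transcript, had levels of 5.10 to 5.59 in MEG3-OFF cells, detected on none of them, against 5.65 to 6.53 in MEG3-ON cells, detected on 3 of 4. These groups did not overlap either, and the difference was at least 1.23-fold. This probe did not pass the filter and was not tested there; in a fit without the filter its log2 difference was -0.76 ± 0.17 (SE, adjusted p = 0.083).

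MAP2 was lower in MEG3-OFF cells by probes 1 and 4, which passed the filter only through the MEG3-ON arrays (adjusted p = 0.0453 and 0.0465 without the filter). MAP2 probe 1 had levels of 5.18, 4.74, 5.63, 5.52 and 4.75 in MEG3-OFF cells, against 6.10, 6.49, 6.10 and 6.36 in MEG3-ON cells. MAP2 probe 4 had levels of 5.08, 5.14, 5.87, 5.10 and 4.89 in MEG3-OFF cells, against 6.02, 6.23, 6.23 and 6.20 in MEG3-ON cells. In both, no MEG3-OFF array detected the probe, every MEG3-ON array did, and the groups did not overlap. The fold is therefore a bound, at least 1.34-fold and at least 1.26-fold lower (log2 differences -1.10 ± 0.19 and -0.95 ± 0.17, SE, adjusted p = 0.00951 and 0.012). A bound sets the mean of the brighter group against the lowest signal of any detected probe on each array of the dimmer group, or the probe's own signal where that was higher. Each bound holds only for the scaling reported.

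The remaining MAP2 probes did not show this difference. Probe 3, annotated to the same transcript as probe 4, had levels of 5.35 to 6.07 in MEG3-OFF cells (3 of 5 detected) and 4.99 to 5.61 in MEG3-ON cells (0 of 4 detected), groups that overlapped. It did not pass the filter, and without the filter its log2 difference was 0.39 ± 0.16 (SE, adjusted p = 0.348). Probe 2, for a different transcript, stayed below background on all arrays, with levels of 4.82 to 5.59 in MEG3-OFF cells and 4.95 to 5.50 in MEG3-ON cells.

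STMN2, a stathmin of growing axons, was called by 1 of its 2 probes, which share a transcript. Probe 1 had levels of 5.72, 5.56, 5.86, 5.79 and 5.56 in MEG3-OFF cells, with none detected, against 6.72, 6.74, 6.48 and 6.90 in MEG3-ON cells, with all detected. The groups did not overlap, and by this probe STMN2 was at least 1.83-fold lower with the scaling reported (log2 difference -1.01 ± 0.12, SE, adjusted p = 0.000583). Over 19 alternatives this log2 difference lay between -1.09 and -0.54. The probe passed the filter only through the MEG3-ON arrays, and without the filter the adjusted p was 0.00213. Probe 2 had levels of 5.70, 5.71, 6.36, 6.63 and 5.75 in MEG3-OFF cells, against 7.09, 6.55, 6.77 and 6.71 in MEG3-ON cells, where MEG3-OFF 8 lay above MEG3-ON 2. Its log2 difference of -0.75 ± 0.20 (SE) did not pass (adjusted p = 0.063). It passed without MEG3-OFF 8 (log2 difference -0.90, adjusted p = 0.0162), within a range of 0.0162 to 0.207 over 19 alternatives.

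**Figure D2:**
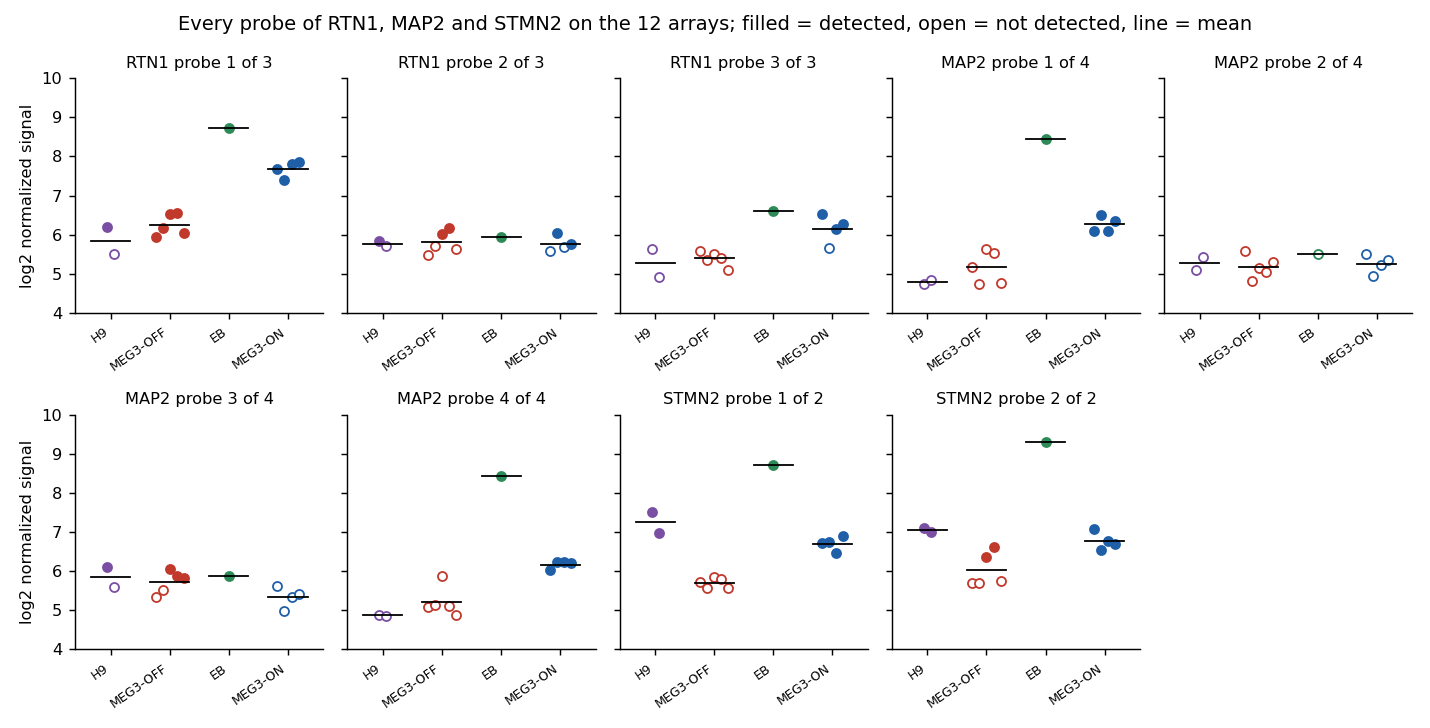
Log2 normalized signal (y axis) of all 9 probes of RTN1, MAP2 and STMN2 in H9, MEG3-OFF, EB and MEG3-ON arrays (x axis), with a point for each array, filled where detected, and a line at the mean. Probes of 1 gene differ in pattern, as for RTN1, where probe 1 separates MEG3-OFF from MEG3-ON arrays and probe 2 does not.

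The other members showed no called difference between MEG3-OFF and MEG3-ON cells. The NEFM level was 6.72, 6.77, 6.73, 7.04 and 6.13 in MEG3-OFF cells, against 7.18, 7.50, 6.88 and 7.66 in MEG3-ON cells. Only MEG3-OFF 8 lay above the lowest MEG3-ON array, and the log2 difference was -0.63 ± 0.19 (SE, adjusted p = 0.0901). Without MEG3-ON 3 it passed (log2 difference -0.77, adjusted p = 0.0496), in a range of 0.0496 to 0.251 over 19 alternatives. TUBB3 was bright in every sample, at 11.55 to 12.61 in MEG3-OFF cells and 12.29 to 12.79 in MEG3-ON cells (log2 difference -0.40 ± 0.19, SE, adjusted p = 0.229). For NEFL, TAGLN3 and DCX the log2 differences were -0.12 ± 0.15, -0.08 ± 0.17 and 0.03 ± 0.21 (SE, adjusted p = 0.672, 0.798 and 0.944), and their groups overlapped. DCX ranged more widely in MEG3-OFF cells (6.19 to 7.41) than in MEG3-ON cells (6.71 to 6.99). STMN4 and CNTN2 were detected on no array of either group.

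With each gene read by its probe of highest mean, limma called 1.85% higher and 1.74% lower of 10770 genes, and of the members 8 were tested, 2 were lower (RTN1 and MAP2) and 0 higher. STMN2 is not among them because its brighter probe is the one without a call. The wider families were read the same way. Of the reticulons, RTN1 alone was called of 4 tested: RTN2, RTN3 and RTN4, which form the tubular endoplasmic reticulum of many cell types, had log2 differences of 0.06, -0.33 and -0.40 (adjusted p = 0.823, 0.117 and 0.102). At an unadjusted limma p under 0.05, 3 of the 4 reticulons were lower and 0 higher. Of 16 tubulins tested, TUBB2A was higher in MEG3-OFF cells (11.16 ± 0.14, SD, n = 5, against 10.61 ± 0.26 in MEG3-ON cells, SD, n = 4; log2 difference 0.56, adjusted p = 0.041) and 0 were lower. Of 13 microtubule-associated proteins tested, DCLK1, a relative of DCX, was higher (log2 difference 0.69, adjusted p = 0.0127) and MAP2 was lower. Limma called 0 of 3 stathmins, 0 of 6 neuronal intermediate filament genes, 0 of 6 transgelins and calponins and 0 of 17 other pan-neuronal genes tested. At an unadjusted limma p under 0.05 these lists held 1, 2, 1 and 3 genes, and 0 in each with the methods' t-test after adjustment. Of 5 contactins and L1-family adhesion genes tested, NRCAM and CNTNAP2 were lower (log2 differences -0.74 and -0.57, adjusted p = 0.0392 and 0.0313) and 0 were higher. The methods' t-test after adjustment called 0 tubulins, 0 microtubule-associated proteins and 0 contactins and L1-family genes, so the calls of TUBB2A, DCLK1, MAP2, NRCAM and CNTNAP2 were lost there.

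Several neural progenitor markers were also lower in MEG3-OFF cells, though the list was chosen with earlier results of these data known. Of 13 such genes tested limma called 7 lower in MEG3-OFF cells and 0 higher, where 1.74% of all 10770 genes were called lower. Before adjustment, 10 of the 13 had a limma p under 0.05, all lower, and the methods' t-test after adjustment called 0. Without the filter, the median log2 difference of all 15 listed genes was -1.20, against 0.01 over all 20020 genes. The list includes DLK1, a gene of the same imprinted locus as MEG3 (log2 difference -1.63, limma adjusted p = 0.0723, not called). The called genes were PAX6, SOX3, SOX11, LHX2, SIX3, RAX and FABP7, for example LHX2, an eye-field and forebrain factor, at 5.91 ± 1.02 in MEG3-OFF cells (SD, n = 5) and 8.61 ± 0.62 in MEG3-ON cells (SD, n = 4; adjusted p = 0.00545). The mean level of the 15 listed genes was 6.90 to 8.05 in MEG3-OFF cells, with 9 to 11 detected per array, and 8.33 to 8.87 in MEG3-ON cells, with 13 or 14 detected. PAX6, SIX3 and SIX6 were below background on all 5 MEG3-OFF arrays, and SOX1 on all 12 arrays. The calls of PAX6 and SIX3 thus passed the filter only through the MEG3-ON arrays. Of the other marker lists, the pluripotency gene NANOG was higher in MEG3-OFF cells (log2 difference 0.77, adjusted p = 0.0204) and ACTA2, a smooth muscle actin, was lower (-0.98, adjusted p = 0.0202), both lost with the methods' t-test after adjustment. The part of neurally primed or other cells in the RTN1, MAP2 and STMN2 differences was not tested.

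H9 cells were then set against both NTU1 groups, since H9 carries the MEG3-OFF label from another genetic background. RTN1, MAP2, NEFM and TUBB3 were lower in H9 than in MEG3-ON cells, and STMN2 was higher in H9 than in MEG3-OFF cells. Over 19760 probes tested, limma called 13.2% higher and 14.9% lower in H9 than in MEG3-OFF cells, and 11.1% higher and 13.5% lower in H9 than in MEG3-ON cells. Both comparisons use the same H9 arrays. Of the 18 member probes 13 passed (detected on at least 2 of 11 arrays): against MEG3-OFF cells 2 were higher and 0 lower (2 and 1 at an unadjusted limma p under 0.05), and against MEG3-ON cells 1 was higher and 6 lower, of 4 genes. Of the 6, 3 (RTN1 probe 3 and MAP2 probes 1 and 4) were not detected in H9, and STMN2 probe 1, 1 of the 2 higher than in MEG3-OFF cells, was not detected there. Without H9 2, limma called 670 probes against MEG3-OFF cells and 1391 against MEG3-ON cells in all, of 5550 and 4862 with it.

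RTN1 probe 1 had levels of 6.20 and 5.49 in H9. Against MEG3-OFF cells the log2 difference was -0.40 ± 0.22 (SE, adjusted p = 0.189), and against MEG3-ON cells it was -1.84 ± 0.23 (SE, adjusted p = 0.00019), with both H9 arrays below every MEG3-ON array. RTN1 probe 3, at 5.64 and 4.91 in H9 and detected on neither, was at least 1.28-fold lower than in MEG3-ON cells (adjusted p = 0.0192), a call lost without H9 2 (adjusted p = 0.274, in a range of 0.0084 to 0.274 over 17 alternatives). RTN1 probe 2 was at 5.83 and 5.71 in H9, a log2 difference of 0.01 ± 0.20 to MEG3-ON cells (SE, adjusted p = 0.985).

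MAP2 probes 1 and 4 were below background on both H9 arrays. MAP2 probe 1 had levels of 4.73 and 4.84 and probe 4 4.89 and 4.86, at least 1.39-fold and at least 1.31-fold lower than in MEG3-ON cells (adjusted p = 0.00119 and 0.00138). Against MEG3-OFF cells, where neither probe was detected, no fold is given. MAP2 probe 3 was at 6.11 and 5.59 in H9, detected on the first array only, with a log2 difference of 0.51 ± 0.23 to MEG3-ON cells (SE, adjusted p = 0.111).

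STMN2 set H9 apart from MEG3-OFF NTU1 cells. Probe 1 had levels of 7.53 and 6.98 in H9, above the 5.56 to 5.86 of MEG3-OFF cells and the 6.48 to 6.90 of MEG3-ON cells. It was at least 2.67-fold higher than in MEG3-OFF cells with the scaling reported (log2 difference 1.56 ± 0.17, SE, adjusted p = 0.000116). That log2 difference lay between 0.91 and 1.84 over 16 alternatives. Probe 2, at 7.10 and 7.01 in H9, was higher than in MEG3-OFF cells as well (log2 difference 1.02 ± 0.24, SE, adjusted p = 0.00923). Leaving out H9 2 ended that call (adjusted p = 0.0875, in a range of 0.00369 to 0.0875 over 16 alternatives). Against MEG3-ON cells probe 1 was higher by a log2 difference of 0.55 ± 0.18 (SE, adjusted p = 0.0399) and probe 2 had a log2 difference of 0.27 ± 0.25 (SE, adjusted p = 0.45). The call of probe 1 was lost under 9 of 17 alternatives, with adjusted p up to 0.374 without H9 1.

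NEFM and TUBB3 were lower in H9 than in MEG3-ON cells. NEFM had levels of 5.83 and 6.23 in H9, below all MEG3-ON arrays (log2 difference -1.28 ± 0.25, SE, adjusted p = 0.00313) and, with 1 MEG3-OFF array between them, not called against MEG3-OFF cells (log2 difference -0.65 ± 0.24, SE, adjusted p = 0.058). TUBB3 had levels of 12.15 and 11.37 in H9, below the 12.29 to 12.79 of MEG3-ON cells (log2 difference -0.78 ± 0.27, SE, adjusted p = 0.0455). The TUBB3 call was lost under 9 of 17 alternatives, with a log2 difference of -0.39 and an adjusted p of 0.452 without H9 2. NEFL (6.75 and 6.12), TAGLN3 (7.09 and 7.13) and DCX (6.43 and 6.90) were not called against either NTU1 group. Of 13 pluripotency genes, limma called 2 higher and 2 lower in H9 than in MEG3-OFF cells. Against MEG3-ON cells it called 3 higher and 2 lower. NANOG averaged 7.77 in H9, lower than 10.75 in MEG3-OFF cells and 9.98 in MEG3-ON cells (limma adjusted p = 1.11e-06 and 1.84e-05). The neural progenitor list, with a mean level of 7.16 and 7.18 in H9 against 8.33 to 8.87 in MEG3-ON cells, held 8 lower and 0 higher of 14 genes tested. DLK1 was 1 of the 8, with the largest log2 difference of them (-4.58, limma adjusted p = 0.00021). PAX6, LHX2, SIX3, SIX6, RAX and SOX1 were below background on both H9 arrays. The part of these cells in the H9 differences was not tested.

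**Figure D3:**
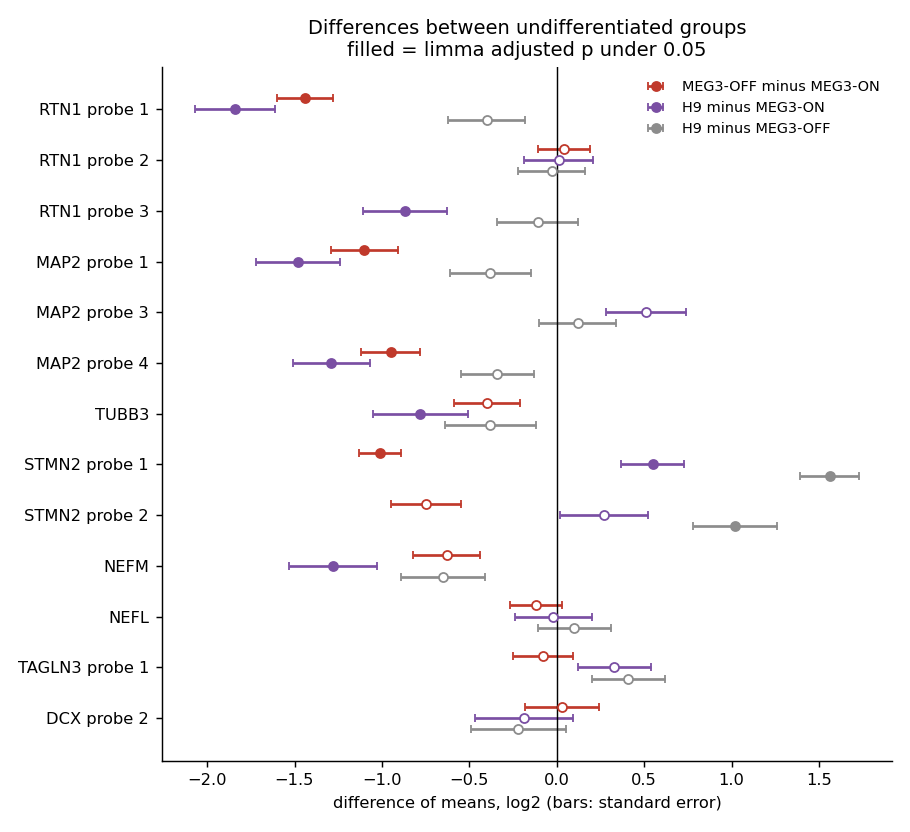
Differences of group means (x axis, log2) for each member probe tested (y axis), with standard errors, for MEG3-OFF minus MEG3-ON (red), H9 minus MEG3-ON (purple) and H9 minus MEG3-OFF (grey). Filled points have a limma adjusted p under 0.05. RTN1 probe 1 and MAP2 probes 1 and 4 are below 0 in both comparisons with MEG3-ON, while STMN2 probe 1 is at -1.01 for MEG3-OFF and 0.55 for H9.

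Among related genes, H9 differed from NTU1 cells in both directions. All 3 stathmins tested were called against MEG3-OFF cells: STMN1, the stathmin of dividing cells, and STMN2 were higher (log2 differences 0.84 and 1.02) and STMN3 lower (-0.94, adjusted p = 0.00366). Over all probes, 13.2% were called higher and 14.9% lower in that comparison. CNTN1, a contactin on axons and at nodes of Ranvier, was higher in H9 than in MEG3-OFF cells (8.61 on average in H9, against 7.02 in MEG3-OFF cells, adjusted p = 0.000554) and higher than in MEG3-ON cells (7.05, adjusted p = 0.000581). NRCAM was lower in H9 than in either group (log2 differences -0.86 and -1.59, adjusted p = 0.0138 and 0.00063). Against MEG3-ON cells, 6 of 13 microtubule-associated proteins tested were lower and 0 higher, among them MAP2, MAP1B (at least 1.37-fold), DPYSL4 and MAP6. Over all probes, 11.1% were higher and 13.5% lower there. Other pan-neuronal genes went the other way, with 3 of 18 tested higher (SYT1, SYT4 and CHGA) and 0 lower.

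The EB was compared with MEG3-ON cells to see which members are read at higher level once cells differentiate. With 1 EB array there is no test, and a probe was counted past 2-fold. Of 19982 probes that the EB array or a minimum of 2 MEG3-ON arrays detected, 7.95% were past 2-fold higher and 7.38% past 2-fold lower. Of the 18 member probes 16 passed, 10 of them, of 7 genes, were past 2-fold higher in the EB and 0 past 2-fold lower. Of the 10, 3 (STMN4, CNTN2 and TAGLN3 probe 2) were counted only through the EB array, and with the scaling reported their bounds are past 2-fold as well. Over all 18 member probes the median log2 difference was 1.38, against -0.01 over all 47230.

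STMN4, CNTN2 and TAGLN3 were higher in the EB. STMN4, which was detected on no other array, had a level of 8.08 in the EB, against 4.71 to 5.27 in MEG3-ON cells (at least 4.74-fold higher). CNTN2 had a level of 8.35 in the EB, against 5.26 to 5.63 in MEG3-ON cells, none detected (at least 5.69-fold higher). TAGLN3 probe 1 had a level of 9.85 in the EB, against 6.91, 6.86, 6.51 and 6.87 in MEG3-ON cells (8.36-fold higher), and probe 2 was detected in the EB only (7.00, against 5.03 to 5.26 in MEG3-ON cells, at least 2.23-fold higher). Both TAGLN3 probes therefore pointed the same way. Over 8 alternatives the log2 difference fell to 1.94 for STMN4, 1.84 for CNTN2 and 1.01 for TAGLN3 probe 2. These are smaller than the bounds, which hold only for the scaling reported.

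MAP2 probes 1 and 4 had levels of 8.45 and 8.44 in the EB, above all MEG3-ON arrays (4.54-fold and 4.82-fold higher). MAP2 probe 3 was not past 2-fold (at least 1.02-fold higher), and MAP2 probe 2 was below background on all arrays. The 2 STMN2 probes were at 8.71 and 9.32 (4.00-fold and 5.81-fold higher). DCX probe 2 was at 8.54 in the EB, against 6.71 to 6.99 in MEG3-ON cells (3.22-fold higher), whereas probe 1 was below background on all arrays. RTN1 exceeded 2-fold by probe 1 only, at 8.74 in the EB (2.09-fold higher, a log2 difference of 1.06), and fell short of it with the series matrix (0.87), with an offset of 50 (0.95) and without MEG3-ON 2 (0.96). The log2 differences were 0.17 and 0.45 for probes 2 and 3.

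TUBB3 and the neurofilaments were not past 2-fold. In the EB, TUBB3 had a level of 12.59, NEFM of 7.18 and NEFL of 6.42, each within the range of the MEG3-ON arrays (12.29 to 12.79, 6.88 to 7.66 and 6.35 to 6.59). The 29 other pan-neuronal genes with a probe were split, with 6 past 2-fold higher and 4 past 2-fold lower of 20 counted by the difference of signals, or 5 and 3 where a gene below background in 1 group is taken at its bound. SYT4 (log2 difference 1.54), ELAVL3 (1.37) and NEUROG2 (1.30) were higher, and SCG3 (-2.70), CHGB (at least 2.73-fold) and SYN1 (-1.44) were lower. SNAP25 was at least 1.33-fold higher and SYP at least 1.12-fold lower, bounds under 2-fold. Of the families, DPYSL4 was higher (log2 difference 2.13) and DCLK1 lower (-2.14), NCAM1 and NRCAM were higher (1.75 and 1.62) and CNTN1 was lower (at least 2.66-fold). STMN3 (-1.35), MAP7 (-1.90) and TUBA4A (-1.38) were lower too, and PRPH, a neuronal intermediate filament gene, was higher (1.04). The stathmins were thus split, with 2 past 2-fold higher and 1 lower. The EB also held a neural progenitor list mean of 11.15, against 8.33 to 8.87 in MEG3-ON cells, with 10 of 14 genes counted past 2-fold higher. Markers of other cells were past 2-fold higher too: 7 of 8 endoderm genes counted (6 with bounds) and 5 of 7 mesoderm and muscle genes (4 with bounds). So were 7 of 11 fibroblast and feeder genes (COL3A1, a fibrillar collagen, at least 26.2-fold) and 4 of 8 neural crest genes. These lists had 10, 13, 12 and 10 genes with a probe, in that order. Genes below the detection filter were not counted, and some were counted only through the EB array. CER1 (endoderm) and FOXD3 (neural crest) were lower, at least 1.59-fold and at least 1.99-fold. Of 13 pluripotency genes, 10 were past 2-fold lower. The part of the make-up of the EB in these differences was not tested.

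**Figure D4:**
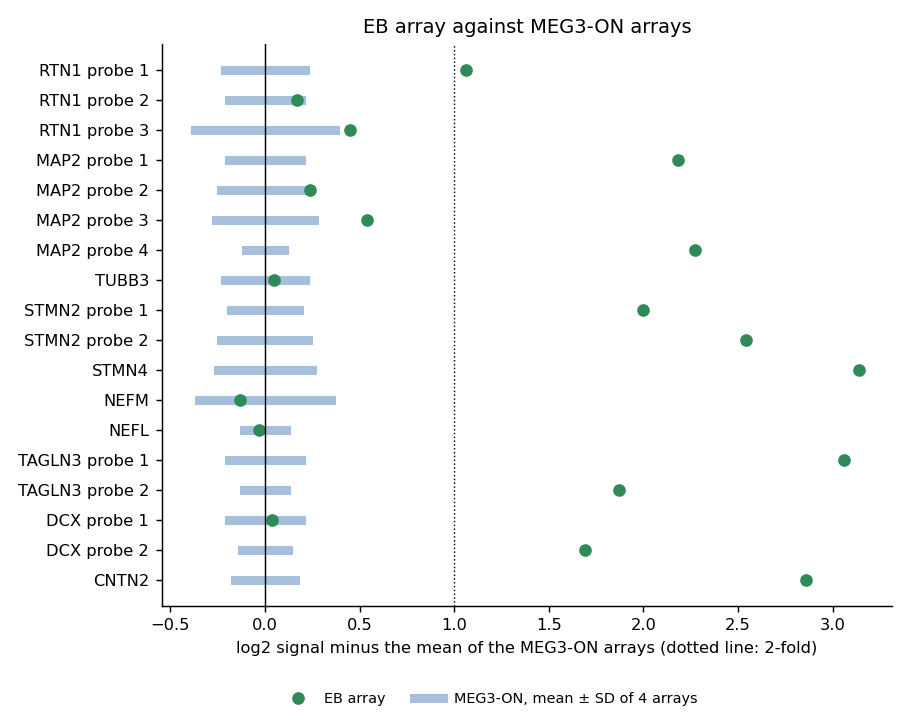
Log2 normalized signal of the EB array minus the mean of the MEG3-ON arrays (x axis) for each of the 18 member probes (y axis, green points), with a blue bar of ± 1 SD of the 4 MEG3-ON arrays around 0 and a dotted line at 2-fold. STMN4, CNTN2 and TAGLN3 probe 2 were below background in MEG3-ON cells, so their points are not exact folds, and TUBB3, NEFM and NEFL lie inside the bars.

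Side by side, the order of group means differed from gene to gene. RTN1 (probe 1) had a mean level of 5.84 in H9, 6.24 in MEG3-OFF cells and 8.74 in the EB, against 7.68 in MEG3-ON cells. MAP2 (probe 4) had 4.88 in H9, 5.22 in MEG3-OFF cells and 8.44 in the EB, against 6.17 in MEG3-ON cells. By these probes, both genes were highest in the EB, then in MEG3-ON cells. RTN1 probe 2 and MAP2 probe 3 did not show this order. H9 and MEG3-OFF cells were not called apart for RTN1 (probe 1), and for MAP2 (probe 4) both were below background and have no order. STMN2 (probe 2) had 7.05 in H9, 6.03 in MEG3-OFF cells and 9.32 in the EB, against 6.78 in MEG3-ON cells, where the neighbours H9 and MEG3-ON overlapped. NEFM had 6.03 in H9, 6.68 in MEG3-OFF cells and 7.18 in the EB, against 7.31 in MEG3-ON cells, the highest mean of the 4.

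The genes whose levels followed RTN1 most closely over the 11 undifferentiated arrays were sought among 10770 genes. Likeness was the root mean square of the differences between the centred log2 levels, where RTN1 itself lies 0.80 from a flat line. PAMR1 (0.159), EPHA4 (0.200) and MIR124-2HG (0.249) came closest. EPHA4, an ephrin receptor of the developing nervous system, had a mean level of 7.04 in H9, 7.36 in MEG3-OFF cells and 10.14 in the EB, against 9.05 in MEG3-ON cells. PAMR1 stood at 8.16 in H9, 8.49 in MEG3-OFF cells and 12.69 in the EB, against 9.92 in MEG3-ON cells. MIR124-2HG, the host transcript of a neuronal microRNA, stood at 6.68 in H9, 7.43 in MEG3-OFF cells and 9.91 in the EB, against 8.84 in MEG3-ON cells. As these genes were picked on these arrays, no test is given.

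**Figure D5:**
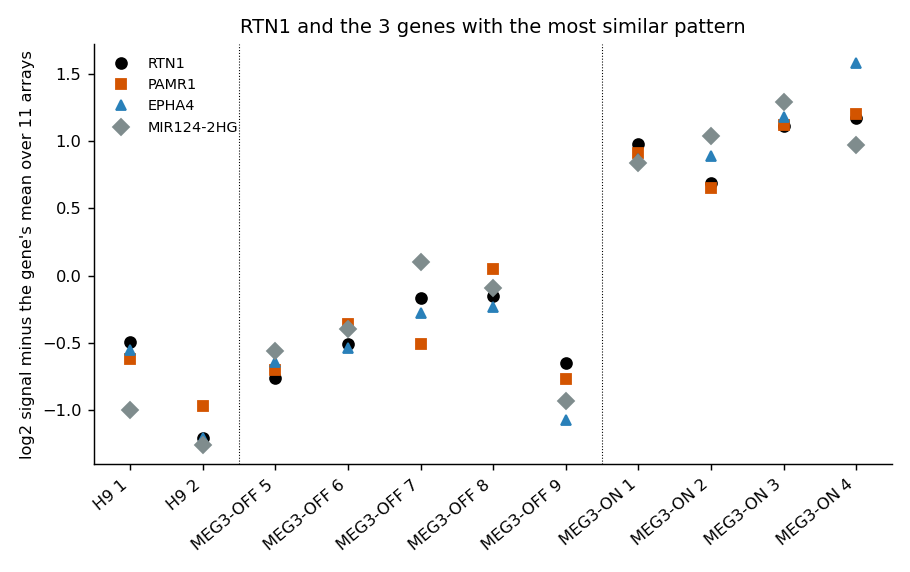
Log2 signal minus the mean of each gene over 11 arrays (y axis) for RTN1, PAMR1, EPHA4 and MIR124-2HG on the H9, MEG3-OFF and MEG3-ON arrays (x axis). All 4 genes are above 0 on the 4 MEG3-ON arrays and lower on the H9 and MEG3-OFF arrays.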

How the data were processed

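The raw table deposited by the authors, which was analysed, holds an intensity per probe and array (mean bead signal, not background subtracted or scaled). Its detection p-value, also deposited, gives how often control beads that match no transcript were at least as bright. A matrix of intensity values, which per the labels were quantile normalized in Partek before they were deposited, served as an alternative. Probes were named through the platform annotation, updated by Entrez ID (30074 matched) to RefSeq of GRCh38.p14. Background correction (by the detection p-values), quantile normalization over 12 arrays and log2 transformation used neqc (offset 16) of limma 3.58.1 in R 4.3.3 with the data.table package (1.17.8). Figures used matplotlib 3.10.9 in Python 3.11.15.

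MEG3-OFF was compared with MEG3-ON by lmFit and eBayes over 9 arrays on 17746 probes detected on at least 4 of them, and also by gene. H9 was compared in a fit of 11 arrays in 3 groups, and the EB without a test. P-values were Benjamini-Hochberg adjusted over all probes tested, with a threshold of 0.05. The number of arrays limits the precision. Named genes were the 10 members, the genes called in each family (at most 4 per direction) and the 3 genes most like RTN1. The members and lists were chosen with earlier results of these data known. Alternatives were other scalings, offsets, filters and tests, a replicate block and leaving out each array. The script was tested on simulated data.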

Additional observations from a re-analysis of the deposited data

Results flagged for a closer look

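In 3 of 36 groups of 4 or 5 arrays examined (18 probes in MEG3-OFF and MEG3-ON cells), 1 array stood apart from the others by Dixon's ratio at the 95% level, and chance gives about 1 in 20. For MAP2 probe 4, MEG3-OFF 7 had a log2 signal of 5.87, where the other MEG3-OFF arrays lay between 4.89 and 5.14, and its detection p-value of 0.01039 missed the limit of 0.01 narrowly. For the same probe, MEG3-ON 1 had a log2 signal of 6.02, where the other MEG3-ON arrays lay between 6.20 and 6.23. For TAGLN3 probe 1, MEG3-ON 3 had a log2 signal of 6.51, where the others lay between 6.86 and 6.91.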

How the results depend on the processing

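The lower RTN1 probe 1 and STMN2 probe 1 in MEG3-OFF cells kept their direction and call under all 19 alternatives run, with adjusted p of 5.21e-05 to 0.0326 and 0.000403 to 0.0473. Their size did change, with log2 differences of -1.53 to -0.94 and -1.09 to -0.54. In the fit by gene, RTN1 lay between -1.53 and -0.70 over 20 alternatives. The 2 MAP2 calls held under 18 of 19 and were lost with the methods' t-test after Benjamini-Hochberg adjustment (adjusted p = 0.13 and 0.146). That t-test called 48 probes and 32 genes after adjustment, against 510 and 386 reported, and 684 probes and 427 genes at unadjusted p under 0.05 and over 1.5-fold. Without the detection filter 282 probes were called. For the EB, 1585 probes were past 2-fold with the series matrix and 1986 with an offset of 50, against 3064. Both compress low signals, and the part of this in the smaller counts was not tested. Leaving out 1 array gave 160 to 1701 changed probes and 137 to 993 changed genes between MEG3-OFF and MEG3-ON cells. The 1701 came without MEG3-OFF 5, and without MEG3-ON 1, 2 or 4 or MEG3-OFF 6, 7 or 9 the count was 247, 243, 160, 240, 303 and 217, in that order. It gave 670 to 6046 probes for H9 against MEG3-OFF and 1391 to 5355 for H9 against MEG3-ON, the lowest of each without H9 2. With median scaling, higher and lower calls in H9 were 1680 and 3172 against MEG3-OFF cells (2606 and 2944 reported) and 1406 and 2737 against MEG3-ON cells (2201 and 2661 reported).

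Among the numbers that the labels give, those of H9 and MEG3-ON samples are shared. These are different cell lines, so the numbers pair nothing, and the label of the EB has no number. With the replicate block, 2605 probes were called between H9 and MEG3-ON cells, against 4862 without it, as only the pairs numbered 1 and 2 then set H9 against MEG3-ON cells.

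Values near 0 changed sign on leaving out 1 array, none of them called. For MEG3-OFF minus MEG3-ON these were RTN1 probe 2 (-0.05 to 0.13), TAGLN3 (-0.22 to 0.01) and DCX (-0.10 to 0.21). For H9 minus MEG3-OFF they were RTN1 probes 2 and 3 (-0.11 to 0.06 and -0.48 to 0.25), MAP2 probe 3 (-0.14 to 0.38), TUBB3 (-0.77 to 0.01), NEFL (-0.22 to 0.41) and DCX (-0.46 to 0.02). For H9 minus MEG3-ON they were RTN1 probe 2 (-0.05 to 0.10, and -0.04 with median scaling and with the replicate block), NEFL (-0.33 to 0.30, and 0.08 with the block) and DCX (-0.42 to 0.05). Most members lie near background, where signal limits what can be read.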
